A study of Mus musculus with 2 samples.

Results

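The genes of the amyloid precursor, its secretases, tau and apolipoprotein E were followed in ribosome-bound RNA of the mouse dentate gyrus. The 9 genes are App, Aplp1, Aplp2, Bace1, Psen2, Ncstn, Aph1a, Apoe and Mapt. They were taken by gene symbol and not by a measured value, although earlier results of these data were known at the time. All 9 were found among the 32531 gene lines. The RNA came from adult animals, otherwise of unstated age, that carry the Lypd1-TRAP transgene (line OI82). In it EGFP is joined to the ribosomal protein Rpl10a and driven by regulatory sequence of Lypd1. Tagged polysomes were pulled down from the dissected dentate gyrus with antibodies to EGFP, the animals had no treatment, and there were 2 libraries, both pull-downs of the same group. The labels do not say whether the libraries came from separate animals or from pools, and their spread may in part be technical. No input RNA, untagged control or second cell type was analysed here, and every value is a level within the purified RNA.

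App encodes the amyloid precursor protein, a membrane protein with a large outer part and a short cytoplasmic tail, and Aplp1 and Aplp2 encode its relatives. Alpha-secretases of the ADAM family or the beta-secretase BACE1 first shed the outer part, and gamma-secretase then cuts the remaining stump inside the membrane. The beta and gamma cuts of APP release the amyloid-beta peptide, which the relatives do not contain. Gamma-secretase joins a presenilin, which holds the active site, with nicastrin, an APH-1 subunit and the presenilin enhancer. Mapt encodes tau, which binds microtubules in axons, and Apoe encodes a lipid carrier that brain tissue makes mostly in astrocytes and microglia. Fewer cells of a type and less RNA per cell cannot be told apart in RNA from pooled cells.

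Replicate 1 held 31309643 counts on gene lines and replicate 2 held 32711412. Levels are given as CPM, a gene's counts in every 1000000 on gene lines, and levels of different genes are compared per kilobase (kb) of annotated exon. All 9 genes reached 1 CPM in both libraries, as did 38.1% of all gene lines. Detected means this level throughout, so the same 38.1% is the share to set beside every detection count. Of the 9 genes, 6 reached 10 CPM in both. The share of all gene lines at 10 CPM was not counted, so the 6 is not read as a result. Together they took 1284 CPM in replicate 1 against 948 CPM in replicate 2. Of the markers of dentate granule cells, 10 of 10 were detected, with a median level of 237 CPM. The series holds 1 group of 2 libraries, so nothing here was tested between conditions and there are no p-values.

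The APP family was led by Aplp1, whose exons are on chromosome 7 (30434982 to 30445535, minus strand, GRCm38). Aplp1 encodes a family member made mainly in neurons. It was counted at 668 CPM in replicate 1 against 403 CPM in replicate 2. This is 177 ± 62.0 CPM per kb (SD, n = 2), which ranks 114 of 23881 genes with a known length.

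App, on chromosome 16 (84949685 to 85173766, minus strand), was at 219 CPM in replicate 1 against 202 CPM in replicate 2, a mean of 16.2 ± 0.922 CPM per kb. Aplp2, on chromosome 9 (31149557 to 31211815, minus strand), which most tissues make, was at 177 CPM in replicate 1 against 163 CPM in replicate 2, a mean of 28.9 ± 1.63 CPM per kb. App and Aplp2 were thus nearly level between the libraries, with coefficients of variation of 5.70% and 5.63%, while Aplp1 had 34.9%. Per kb of exon, the level of Aplp1 was 13.2 times that of App in replicate 1 and 8.61 times in replicate 2. The level of Aplp2 was 1.79 times that of App in each library. The counts cover all transcript forms of a gene together, so forms of App with and without the protease inhibitor domain were not separated.

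The promoters of the 3 family members are shown because these genes led the group in CPM, while Aplp1 alone of the 3 was past 1.5-fold between the libraries. They are the 250 bases before the RefSeq start (GRCm38.p6), with the GC box (GGGCGG, or CCGCCC on the other strand) in capitals. App lies at chr16:85173708-85173957, Aplp1 at chr7:30445583-30445832 and Aplp2 at chr9:31211849-31212098, all on the minus strand.
App: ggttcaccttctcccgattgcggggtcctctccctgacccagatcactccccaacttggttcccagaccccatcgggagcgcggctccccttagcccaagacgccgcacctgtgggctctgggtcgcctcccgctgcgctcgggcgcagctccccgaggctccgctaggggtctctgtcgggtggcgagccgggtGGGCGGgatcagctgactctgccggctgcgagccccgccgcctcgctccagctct
Aplp1: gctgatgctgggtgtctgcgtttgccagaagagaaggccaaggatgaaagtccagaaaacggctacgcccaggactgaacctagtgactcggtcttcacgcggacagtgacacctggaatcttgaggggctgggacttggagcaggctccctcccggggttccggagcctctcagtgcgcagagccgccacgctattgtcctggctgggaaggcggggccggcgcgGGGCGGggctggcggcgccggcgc
Aplp2: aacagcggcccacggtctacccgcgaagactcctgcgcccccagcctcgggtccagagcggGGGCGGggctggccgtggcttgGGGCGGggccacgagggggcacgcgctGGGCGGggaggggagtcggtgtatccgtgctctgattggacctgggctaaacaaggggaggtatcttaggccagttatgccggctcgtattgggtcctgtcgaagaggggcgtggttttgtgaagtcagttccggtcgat

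The App window held 1 GC box, starting 55 bases before the RefSeq start, and 70.8% G and C. The coordinates given above for App, from GENCODE, reach to 85173766 and so into this window. By that annotation the GC box of App lies within the gene. Aplp1 held 1, starting 24 bases before the start, and 66.0% G and C. Aplp2 held 3, the nearest starting 140 bases before the start, and 66.4% G and C. None of the 3 windows held TATAAA or the palindrome CACGTG on either strand. Of 32851 promoter windows of this length in the table, 32.7% held a GC box, 12.4% held TATAAA and 6.02% held CACGTG. Promoters were matched for 7 of the 9 genes, and no entry was matched for Bace1 or Mapt. A match of letters is a description of the window and not a binding site.

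**Figure D1:**
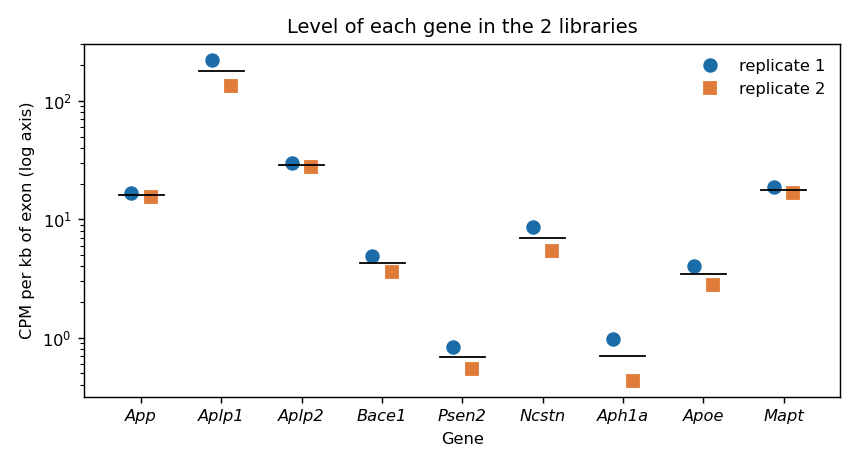
Level of each gene in CPM per kb of exon (log axis), with circles for replicate 1, squares for replicate 2 and a bar at the mean. Aplp1 stands at 221 and 134, and Psen2 and Aph1a lie below 1 in both libraries.

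Among the sheddases, Bace1, which makes the beta cut, was at 31.4 CPM in replicate 1 against 22.7 CPM in replicate 2, or 4.26 ± 0.964 CPM per kb (SD, n = 2). The gene is on chromosome 9 (45838580 to 45864399, plus strand). Its paralog Bace2 had 0 counts in replicate 1 and 9 counts in replicate 2, where 3 counts is the limit that a count of 0 allows. Adam10, the main alpha-secretase of neurons, was at 42.8 CPM in replicate 1 against 38.1 CPM in replicate 2. Per kb, the level of Adam10 was 1.76 times that of Bace1 in replicate 1 and 2.16 times in replicate 2. Adam9 was at 17.2 and 13.3 CPM, while Adam17, the other broadly acting sheddase, was at 2.87 CPM in replicate 1 against 3.82 CPM in replicate 2. The exons of Bace1 share sequence with overlapping genes, first with Rnf214 on the opposite strand. Of the 50-base stretches of the longest coding transcript of Bace1, 30.3% also lie only in a transcript of an overlapping gene on either strand. Rnf214 holds 15.4% of the stretches. The strand setting of the counting is not given in the sources used here.

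The subunits of gamma-secretase were counted at unequal levels, and all 7 were detected, against 38.1% of all gene lines. Nicastrin (Ncstn, chromosome 1, 172066013 to 172082795, minus strand), the large glycoprotein of the complex that takes part in substrate recognition, was at 34.1 CPM in replicate 1 against 21.7 CPM in replicate 2, or 7.02 ± 2.21 CPM per kb. Psen2 (chromosome 1, 180227004 to 180263438, minus strand), one of the presenilins, was at 3.61 CPM in replicate 1 against 2.35 CPM in replicate 2, or 0.688 ± 0.205 CPM per kb. The exact (Clopper-Pearson) 95% counting intervals of Psen2 were 2.97 to 4.34 CPM in replicate 1 and 1.86 to 2.94 CPM in replicate 2, so they did not overlap but lay close together. Per kb, Psen2 was thus among the lowest of the 9 genes, beside Aph1a. Psenen, the presenilin enhancer, had the highest level per kb of the complex, at 15.96 CPM per kb in replicate 1 against 12.4 CPM per kb in replicate 2.

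Aph1a, a scaffold subunit (chromosome 3, 95893969 to 95898288, plus strand), was counted at 3.35 CPM in replicate 1 against 1.498 CPM in replicate 2, or 0.703 ± 0.380 CPM per kb. These values rest on 105 and 49 counts, with exact counting intervals of 2.74 to 4.06 CPM and 1.11 to 1.98 CPM. The other scaffold genes, Aph1b and Aph1c, which are a mouse gene pair, were at 8.46 and 9.49 CPM in replicate 1 and at 11.7 and 7.83 CPM in replicate 2. Aph1a was therefore the least counted of the 3, although Aph1b and Aph1c share 19.7% and 18.5% of their 50-base stretches with each other.

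Much of the sequence of Aph1a is not its own, and what this does to its count was not tested. The read length is not given in the sources used here. Of the 50-base stretches of its longest coding transcript, 33.7% also occur in a transcript of a gene elsewhere in the genome. The processed pseudogene Gm15429, on chromosome 1 (161726242 to 161727489, minus strand), alone holds 24.9% of them. A further 14.1% are shared only with a gene that overlaps Aph1a, and Car14 lies on the opposite strand there. Reads with several alignments are not counted for any gene in these tables, and their part in the level of Aph1a was not tested. With exon length reduced by the shared share, Aph1a came to 1.86 CPM per kb in replicate 1 and 0.833 CPM per kb in replicate 2. This reduction assumes that shared stretches yield no counts, and it applies the share of the coding transcript to all exons. Psenen also has shared sequence, with 257 of its 659 stretches shared, first with the processed pseudogene Gm12396. Aplp1, Aplp2, Psen2, Apoe and Mapt share none, App shares 1.19% and Ncstn 5.15%, the last all with Copa on the opposite strand.

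**Figure D2:**
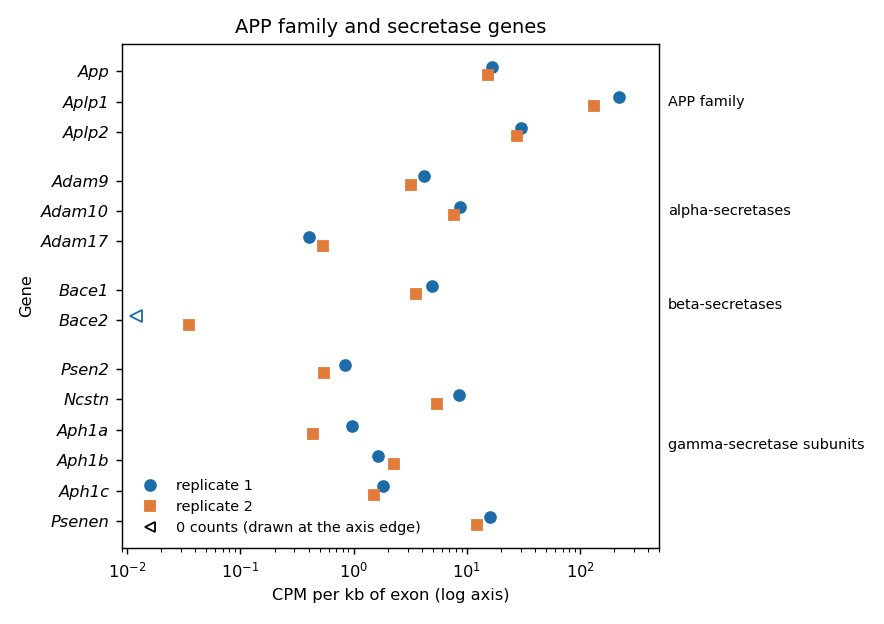
Level in CPM per kb of exon (log axis) of the APP family and of the alpha-, beta- and gamma-secretase genes named in the text, with circles for replicate 1 and squares for replicate 2. An open triangle at the left edge marks 0 counts and carries no level, and it applies to Bace2 in replicate 1, against 9 counts in replicate 2.

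Mapt, on chromosome 11 (104231390 to 104332090, on the plus strand), had 141 CPM in replicate 1 against 126 CPM in replicate 2, or 17.7 ± 1.39 CPM per kb (SD, n = 2). Of the other microtubule-associated protein genes on the list, 6 stood higher than Mapt in mean level per kb and 3 lower (Map7, Map6 and Map1s). The highest was Map1b, whose level per kb was 14.5 times that of Mapt in replicate 1 and 18.8 times in replicate 2. Map1a came next, at 85.0 and 93.9 CPM per kb, and then Map7d1, at 59.2 and 52.8 CPM per kb, while Mapt was at 18.7 and 16.7 CPM per kb. The dendritic protein gene Map2 followed, at 2.38 times the level of Mapt per kb in replicate 1 and 3.10 times in replicate 2. All 10 genes of that list were detected, against 38.1% of all gene lines.

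All 17 tau kinase genes were detected, against 38.1% of all gene lines. Among those high per kb was the MAP kinase Mapk3 (153 and 104 CPM per kb in replicates 1 and 2). The Cdk5 activator Cdk5r2 stood at 84.1 and 60.4 CPM per kb. Gsk3b, the kinase best known for acting on tau, was at 3.34 times the level of Mapt per kb in replicate 1 and 4.12 times in replicate 2. All 8 tau phosphatase genes were detected too, with the catalytic subunit Ppp2cb of phosphatase 2A highest at 86.1 and 84.1 CPM per kb, then Ppp2ca at 34.6 and 39.7 CPM per kb and Ppp2r1a at 29.0 and 27.1 CPM per kb.

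Apoe, on chromosome 7 (19696109 to 19699188, minus strand), was at 8.62 CPM in replicate 1 against 6.02 CPM in replicate 2, or 3.43 ± 0.860 CPM per kb (SD, n = 2). Clu, which encodes clusterin, another secreted lipid carrier, was at 33.1 CPM in replicate 1 against 23.2 CPM in replicate 2. Per kb, the level of Clu was 2.387 times that of Apoe in replicate 1 and 2.397 times in replicate 2, a ratio that was nearly the same in both. Of the astrocyte markers, 9 of 10 were detected, where 38.1% of all gene lines were. Their summed level was 483 CPM in replicate 1 against 538 CPM in replicate 2. The glutamate transporter gene Slc1a2 alone made up 389 CPM in replicate 1 against 413 CPM in replicate 2, and the other 9 markers summed to 94.1 CPM against 125 CPM. Of the 9 astrocyte markers at a mean of at least 1 CPM, 3 had a log2 ratio of replicate 1 over replicate 2 above 0 and 6 below. Among all genes at that level, 50.6% were above 0. Of the microglial markers 1 of 10 was detected, with a sum of 5.88 CPM in replicate 1 against 7.37 CPM in replicate 2, and C1qa and C1qb had 0 counts in both. Of the oligodendrocyte markers 7 of 9 were detected, with sums of 194 CPM in replicate 1 against 149 CPM in replicate 2. Mbp alone made up 126 and 99.3 CPM of these sums. The other marker sums were 11.4 against 20.1 CPM for oligodendrocyte precursors (4 of 4 detected), 18.8 against 18.5 CPM for endothelial cells (4 of 5) and 73.8 against 121 CPM for GABAergic neurons (3 of 6). The part of other cell types in the level of Apoe was not tested.

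Among receptors of Apoe, 6 of 8 were detected, against 38.1% of all gene lines. Sorl1, a sorting receptor that also carries APP, led them (11.2 and 11.04 CPM per kb). The reelin receptor Lrp8 (8.40 and 7.202 CPM per kb) and Vldlr (5.996 and 7.18 CPM per kb) followed. Lrp2 was at 1.09 and 0.520 CPM. In the lipid carrier and export list 7 of 8 were detected. Abcg1, which exports cholesterol, was between Clu and Apoe per kb (6.05 and 6.29 CPM per kb), and Apoc1 had 1 count in each library.

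In the order of mean level per kb, Aplp1 came first, then Aplp2, Mapt, App, Ncstn, Bace1, Apoe, Aph1a and Psen2. The 2 libraries' values overlapped between Mapt and App, between Bace1 and Apoe, and between Aph1a and Psen2, so the spread between libraries did not separate these neighbours. Within each library, however, Mapt was above App (1.11 times in replicate 1 and 1.08 times in replicate 2) and Bace1 above Apoe (1.23 and 1.27 times). Aph1a was 1.17 times the level of Psen2 in replicate 1 and 0.799 times in replicate 2, so only this pair changed places between the libraries. The other 5 neighbouring pairs did not overlap with all exons as the length. The order depends on the length used. With the longest transcript in place of all exons, App moved ahead of Mapt (25.7 and 25.3 CPM per kb on average), Apoe ahead of Bace1 (5.20 and 4.47) and Psen2 ahead of Aph1a (1.48 and 0.847). These are the same 3 pairs. Aplp1, Aplp2 and Ncstn kept their places in mean level with the longest transcript, the longest coding transcript and the length without shared stretches. With the last, however, the libraries' values of Ncstn (9.05 and 5.75 CPM per kb) and Bace1 (7.14 and 5.17 CPM per kb) overlapped.

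Differences between the libraries are log2 ratios of replicate 1 over replicate 2, after scaling of the totals with the trimmed mean of M-values (TMM). They compare these 2 libraries and not conditions. All 9 genes had a ratio above 0, where 50.6% of the 13089 genes at a mean of at least 1 CPM did. The median of the 9 was 0.42, and the median of those genes was 0.01. Of the 9, 2 were at least 1.5-fold higher in replicate 1, against 14.2% of genes, and 1 of these, Aph1a, was at least 2-fold higher, against 5.71%. None was 1.5-fold lower, against 12.7%. With 9 genes, counts of 2 and 1 lie near these shares and are not read as a result.

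Aph1a had the widest difference, a log2 ratio of 1.04 (95% counting interval 0.56 to 1.59). It rests on the lowest counts of the group, and 5.33% of genes had a ratio at least as high. Aplp1 followed at 0.63 (0.60 to 0.66), then Ncstn at 0.56 (0.42 to 0.70), Psen2 at 0.51 (0.09 to 0.96), Apoe at 0.42 (0.15 to 0.69) and Bace1 at 0.37 (0.23 to 0.51). Mapt at 0.06 (0.00 to 0.13), App at 0.02 (-0.03 to 0.07) and Aplp2 at 0.02 (-0.04 to 0.07) were nearly level. The intervals cover counting error only. The coefficient of variation between libraries that edgeR fitted at each gene's level was 21.1% for Aplp1, 43.1% for Psen2 and 46.0% for Aph1a, so low counts and library spread both limit the last 2.

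**Figure D3:**
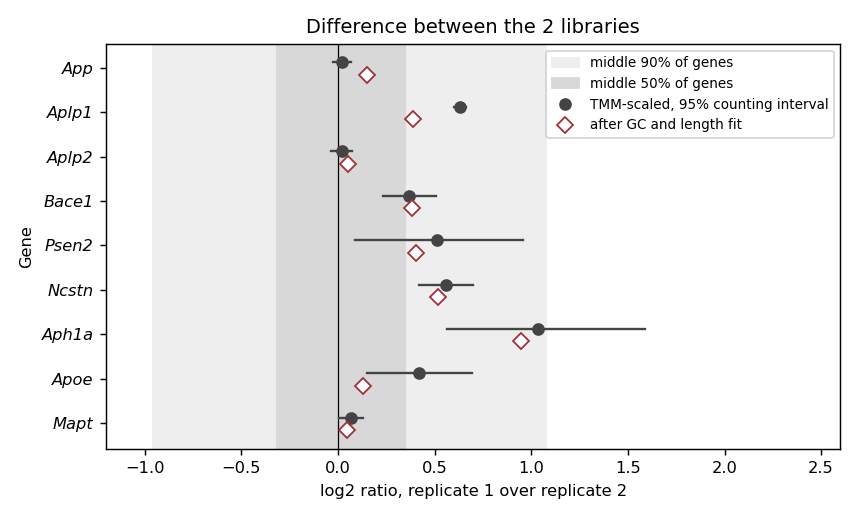
Log2 ratio of replicate 1 over replicate 2 for each gene, with 95% counting intervals (filled circles) and after removal of a fit on GC content and exon length (open diamonds). Grey bands hold the genes at a mean of at least 1 CPM between the 5th and 95th and between the 25th and 75th percentile. All 9 genes lie to the right of 0 by both measures.

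GC content moved weakly with the difference over all genes. Genes whose longest transcript held 40% to 45% G and C had a median log2 ratio of -0.10, and those at 55% to 60% had 0.20. Over 12380 genes, which are not independent replicates, Spearman's rho between ratio and GC content was 0.22. The GC content of Apoe was 59.5% and of Aplp1 59.4%, at percentiles 94.8 and 94.5 of these genes, while App had 46.1% and Aplp2 48.4%. A fit on GC content and exon length together took up 3.59% of the variance of the ratios. After this fit, the ratio of Aplp1 came to 0.39, of Apoe to 0.13 and of Aph1a to 0.95. App stood at 0.15. All 9 genes stayed above 0 after the fit, where 49.5% of genes did, with a median of 0.38.

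**Figure D4:**
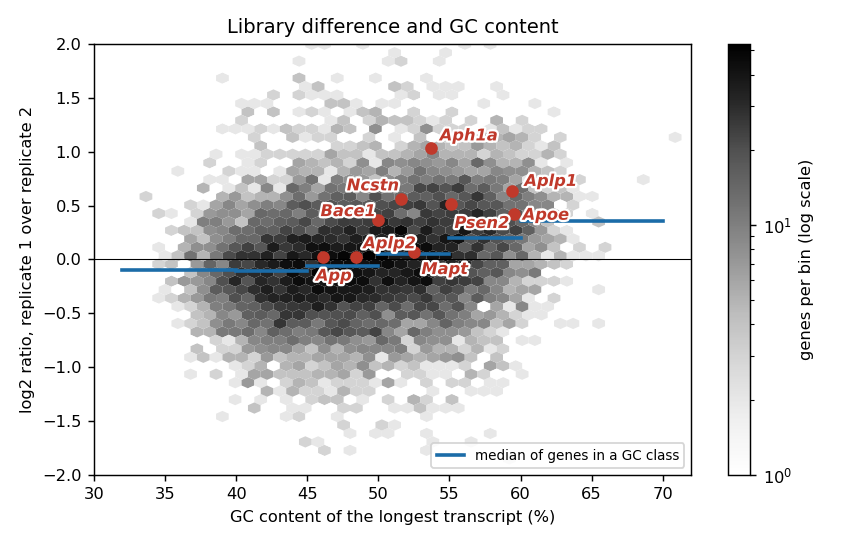
Log2 ratio of replicate 1 over replicate 2 against GC content (%) of the longest transcript, for genes at a mean of at least 1 CPM (grey, darker with more genes), with the median of each GC class (blue lines) and the 9 genes (red). A further 212 genes lie outside the plotted range of 2 in either direction, and the class medians climb from -0.10 at 40% to 45% to 0.36 above 60%.

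The wider pathway was evenly divided under TMM scaling. Of 103 other list genes at a mean of at least 1 CPM, 52 had a ratio above 0 and 51 below, with a median of 0.00. Library totals alone, which move the median of all genes to 0.10, gave 62 above and 41 below. That is 60.2% above 0, where 58.5% of all genes were above 0 with these totals. Under TMM scaling, 5 of the 103 were at least 1.5-fold higher in replicate 1, against 14.2% of all genes, and 6 at least 1.5-fold lower, against 12.7%. The levels differ, with a median of 49.1 CPM over all 108 other list genes and 19.9 CPM over all genes compared. What level does to these shares was not tested. The list counts that follow are under TMM scaling, where 50.6% of all genes were above 0. Within the gamma-secretase list 6 of 7 were above 0, the exception being Aph1b at -0.56 (-0.80 to -0.33). Psenen was at 0.27. Among the lipid carriers 6 of 7 compared were above 0, among the alpha-secretases 2 of 3, among the signal peptide peptidases 4 of 4 and among the amyloid-degrading proteases 3 of 6. Under TMM scaling 9 of 17 tau kinases, 4 of 8 tau phosphatases, 5 of 10 microtubule-associated proteins and 2 of 6 receptors of Apoe were above 0. Of the BACE1 substrates other than the APP family, 7 of 10 were above 0 and all 10 were detected, led per kb by Sez6l (41.5 and 37.4 CPM per kb), the sodium channel subunit gene Scn2b (38.5 and 32.9 CPM per kb) and Sez6l2 (31.8 and 22.6 CPM per kb).

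Adaptors that bind the cytoplasmic tail of APP were evenly divided, with 5 of 10 above 0 and a median ratio of 0.04. Dab1 was the highest per kb, at 43.2 and 40.4 CPM per kb, followed by Apba1 (15.4 and 13.6 CPM per kb) and the kinase scaffold gene Mapk8ip1 (13.7 and 11.4 CPM per kb). Of the genes that sort APP and BACE1, 4 of 14 were above 0 under TMM, where 50.6% of all genes were. With library totals alone 7 of these 14 were above 0, where 58.5% of all genes were. Rtn3, a reticulon that binds BACE1, was the highest of them per kb (179 and 139 CPM per kb), followed by Rtn4 (50.4 and 52.8 CPM per kb) and the retromer gene Vps26b (47.3 and 46.6 CPM per kb). Amyloid-degrading proteases were led per kb by the cathepsins Ctsb (29.6 and 24.1 CPM per kb) and Ctsd (21.8 and 13.2 CPM per kb). Ctsd had a log2 ratio of 0.63, while the endothelin-converting enzyme Ece1, next per kb (5.78 and 9.14 CPM per kb), was at -0.76. Ace was under 1 CPM, at 0.767 and 0.245. Among the signal peptide peptidases, relatives of the presenilins, Sppl2a was the highest per kb (8.54 and 7.86 CPM per kb), followed by Sppl3 (6.82 and 4.92 CPM per kb) and Hm13 (2.77 and 2.20 CPM per kb), and Sppl2b was at 1.72 and 0.642 CPM.

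Of the 7 regulators of tau exon 10 splicing, 7 lay below 0 under TMM, where 49.4% of all genes did. With library totals alone 6 of the 7 lay below 0, where 58.5% of all genes lay above 0. This list, like the others, was chosen with earlier results of these data known. The median log2 ratio of the regulators was -0.56, and -0.48 after the fit on GC content and length. Of these, 3 were at least 1.5-fold lower in replicate 1, against 12.7% of all genes. Srsf7 was at 84.5 CPM in replicate 1 against 141 CPM in replicate 2 (log2 ratio -0.84, counting interval from -0.91 to -0.77), and Srsf2 was at 86.4 and 127 CPM. Both encode splicing factors rich in serine and arginine, as does Srsf9, at 56.6 CPM in replicate 1 against 59.5 CPM in replicate 2. Tra2b, an activator of exon 10, was at 29.4 CPM in replicate 1 against 50.7 CPM in replicate 2. Mapt itself was nearly level between the libraries, and its exons were not counted apart, so the share of exon 10 was not analysed here.

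**Figure D5:**
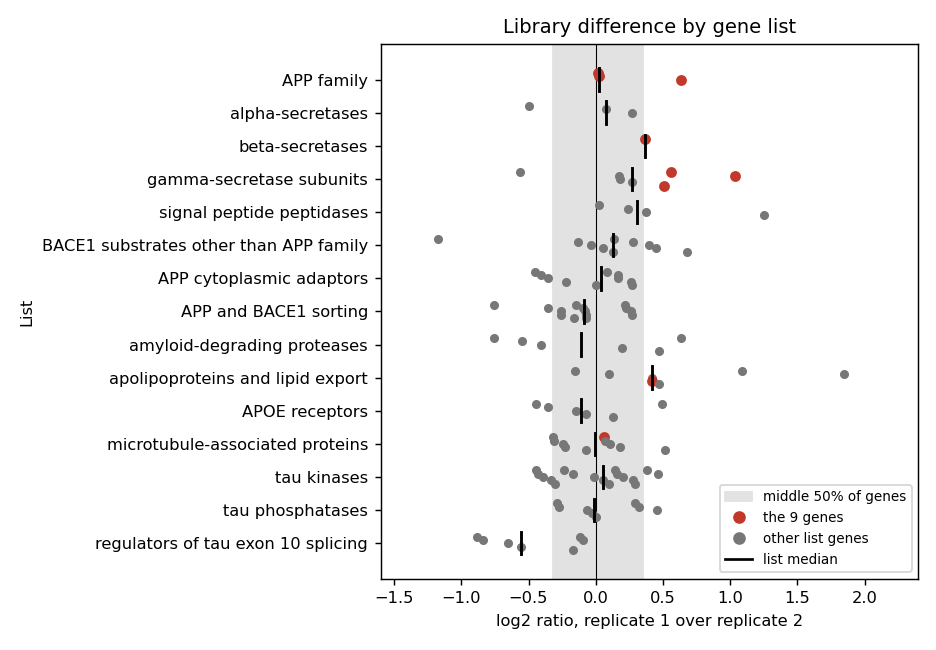
Log2 ratio of replicate 1 over replicate 2 for each gene of the 15 pathway lists at a mean of at least 1 CPM, with the 9 genes in red, other list genes in grey, list medians as black bars and a grey band from the 25th to the 75th percentile of all genes. The 7 exon 10 splicing regulators lie left of 0 under TMM scaling (6 of 7 with library totals alone) and the 9 red genes right of it.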

How the data were processed

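The deposited values are read counts per gene symbol, not normalised, in 1 table for each of the 2 libraries. STAR 2.0.0e, HTSeq and build mm10 are named, per the submitters' processing notes. The annotation is not given in the sources used here, nor are the strand setting and the read length. HTSeq summary lines and the empty line named unknown name no gene and stayed out of the totals. Gene lines held 65.0% of all counted lines in replicate 1 and 64.9% in replicate 2.

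CPM was computed here on gene lines, with means and SDs over the 2 libraries. Exon lengths (union of exons), transcript GC content and coordinates are from GENCODE M21 (GRCm38, the assembly of mm10), matched by symbol or RefSeq synonym for 94.6% of genes at a mean CPM of at least 1. Hm13 is listed as H13 in the tables. Log2 ratios used edgeR 4.0.16 with TMM and a prior count of 2, and 95% intervals by the exact Clopper-Pearson method. The spread is edgeR's dispersion in an intercept-only fit, 29.4% as a common coefficient of variation. Shared sequence was sought as 50-base stretches of the longest coding transcript in transcripts of other genes, on both strands. The GC and length fit used natural splines with 4 degrees of freedom each. Reads carry no molecular identifiers, so intervals and the floor of 3 counts cover counting error only. The ratio step was tested on simulated data with less spread than edgeR fitted here. Changes were set only in genes at 10 CPM or more, so that test does not cover Aph1a, Psen2 or Apoe.

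The genes and the 15 pathway and 7 marker lists were chosen with earlier results of these data known. Beyond the 9 genes, the text names the 3 members of a list highest per kb, members under 1 CPM in either library, and members at 10 CPM or more that differ 2-fold. Adam9, Adam17, Psenen, Aph1b, Aph1c, Clu, Map2, Gsk3b, Tra2b, Map7, Map6, Map1s, Slc1a2, C1qa and C1qb were named as relatives or markers that a result turns on. Some genes that this rule covers are not reported here. Protein sequences were not used here.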

Additional observations from a re-analysis of the deposited data

Results flagged for a closer look

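Reads that the counting left out of every gene line drew a second look, since no comparison used them and several of the genes lie in shared sequence. Reads that overlapped several genes came to 2.61% (replicate 1) and 2.56% (replicate 2) of everything counted. Those with several alignments came to 15.7% (replicate 1) and 15.5% (replicate 2). How many of them came from Aph1a, Psenen or Bace1 cannot be read from these tables. Groups of 2 libraries allow no check for an outlying sample.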

How the results depend on the processing

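No paired analysis was possible because the series has 1 group and no comparison between groups. All 9 genes kept a ratio above 0 under DESeq2 size factors, library totals alone, totals without Rn45s and Lars2, the every-gene filter, a prior count of 0.5 and the GC and length fit, and the median ratio ranged from 0.38 to 0.51. Each change of scaling shifts all ratios by nearly the same amount, and the lower prior count moves them slightly away from 0. These settings are therefore not separate checks of the sign, and only the GC and length fit moves genes apart. The number at least 1.5-fold higher in replicate 1 was 4 with library totals alone, which shift every ratio up by 0.10, and 1 after the GC and length fit, where the number at least 2-fold higher was 0. Library totals alone also gave 6 of 8 tau phosphatases above 0, where 58.5% of all genes were. DESeq2 size factors gave 3 of 8, where 50% of all genes were above 0, against 4 of 8 under TMM. At 10 CPM in both libraries 6 genes remained, with no share of all gene lines counted at that level, and each library alone gave 9 at 1 CPM. Of the values of single genes under another setting, 85 stayed within the limits used and 23 moved beyond them. An example of the 23 is App at 25.7 CPM per kb with the longest transcript. For log2 ratios the limits were the counting interval of the gene, which covers counting error only. For CPM and CPM per kb they were the SD between the libraries. The 85 include CPM values of each library alone, which with 2 libraries always lie within the SD of the mean. Only log2 ratios can change sign, and none did. The 85 is thus not a measure of stability. The GC and length fit, the coding transcript length and the length without shared sequence were chosen after the data were seen. Counts of 105 and 49 for Aph1a and of 113 and 77 for Psen2 limit what their differences can show.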
